A study of Mus musculus with 55 samples.

Results

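Pre-BI cells are the earliest of 5 B lineage populations that were sorted from mouse bone marrow and profiled on oligonucleotide arrays. The 12 arrays titled as pre-BI cells, of 55 arrays in all, were set against those of each of the other 4 populations. The question taken up was which transcripts were higher, or lower, in pre-BI cells than in every other population. The gate for pre-BI cells was B220+ c-kit+. Large pre-BII and small pre-BII cells were B220+ CD25+ cells without surface immunoglobulin, parted by size. Immature B cells were B220low with surface IgM, and mature B cells were B220hi with surface IgM. Strain, age and the pooling of animals are not given in the sources used here.

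There were 6 preparations of pre-BI cells (sorts 1, 2, 3, 8, 9 and 10) and 5 of each other population, 26 in all. Sort numbers are the numbers in the array titles. The titles do not say what these count, and reading them as sorts is an assumption. Each was run on 2 array designs that carry different transcripts, named below the first set and the b set. A first-set array titled as a second one of mature B sort 1 was identical in all 6584 values to mature B sort 11 and was left out, so 54 arrays were used. No label says that preparations came from different animals, and p-values therefore measure only how far these preparations spread, which may be technical. In sorted bulk samples a change in the RNA of each cell and a change in the mix of cells within a gate cannot be told apart.

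In B cell development the pre-BI stage is the stage at which immunoglobulin heavy chain genes are being joined. Terminal transferase then adds untemplated nucleotides at the joints, the receptor tyrosine kinase Kit receives stem cell factor from the stroma, and the surrogate light chain proteins are made that will pair with the heavy chain. Cells whose heavy chain assembles with that surrogate divide as large pre-BII cells, then come to rest as small pre-BII cells, join their light chain genes and become immature B cells.

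Levels are intensities as deposited, on a linear scale that runs below 0, after quantile normalisation between arrays. A noise limit of 2 robust standard deviations, taken from the negative values, was 251 for first-set arrays and 319 for b-set arrays. It was exceeded by 40% and by 20.1% of values. Folds and log2 differences are between population means of values raised to that limit, and "at least" marks a fold whose dimmer population had no preparation above it. Where only some of its preparations exceeded the limit, the fold is taken against raised values and understates the difference. Adjusted p-values come from limma on all 10300 probe sets tested. For a transcript said to be higher or lower than in every other population, the weakest of its 4 comparisons sets the p-value, which was adjusted over all 10300, with a threshold of 0.05. Precision is limited by how many arrays there were.

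The label was checked against Dntt, Kit and Lef1, genes that mark early B lineage cells. Dntt encodes terminal transferase. By its probe set X68670_s_at it had levels of 7590 (lowest), 8000 (median) and 8470 (highest) in pre-BI cells, against 50.7, 215, 326, 350 and 498 in large pre-BII cells and −85 to 234 in the other 3 populations. Every pre-BI preparation lay far above every other one. The fold was 22.5 against large pre-BII cells (log2 difference 4.49 ± 0.13 SE) and at least 25.2 against small pre-BII, immature and mature cells (adjusted p = 2.18e-04). In the limma fit, with its lower floor, the log2 difference from large pre-BII cells was 5.14 ± 0.79 SE. The second Dntt probe set was much dimmer, at 383 (lowest), 807 (median) and 1140 (highest) in pre-BI cells, against no more than 188 elsewhere. It did not overlap between the groups either, but missed the threshold (adjusted p = 0.389). The promoter of Dntt, from 250 bases before to 50 after the RefSeq start, is shown because its smallest log2 difference, on values raised to the limit, was the largest of all transcripts that passed upwards. It lies at chr19:41029025-41029324 on the plus strand of GRCm38.p6 and reads:
Dntt promoter: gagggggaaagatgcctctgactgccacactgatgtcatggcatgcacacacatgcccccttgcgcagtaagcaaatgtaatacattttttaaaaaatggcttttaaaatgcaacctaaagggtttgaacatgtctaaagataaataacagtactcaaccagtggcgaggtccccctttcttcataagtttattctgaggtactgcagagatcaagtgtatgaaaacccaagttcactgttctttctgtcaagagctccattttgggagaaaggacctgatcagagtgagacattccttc
None of the 8 motifs listed further on was found in this window.

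The other 2 markers were fainter. Kit had levels of 176 (lowest), 289 (median) and 356 (highest) in pre-BI cells, and 2 of 6 preparations exceeded the limit of 319. No preparation of another population did, the highest being a large pre-BII preparation at 195. Kit passed against immature (adjusted p = 0.0163) and mature cells (adjusted p = 7.29e-04) but not against large (adjusted p = 0.414) or small pre-BII cells (adjusted p = 0.104). Lef1, a transcription factor of lymphoid progenitors, ran from 242 through a median of 563 to 2720 in pre-BI cells, against −219 to 260 elsewhere. Pre-BI sort 10 overlapped with large pre-BII sort 1. Each of the 4 Lef1 comparisons passed on its own, that with large pre-BII cells at an adjusted p of 0.0483, but the joint test did not (adjusted p = 0.142). Ptprc, which encodes the B220 antigen of the gates, was at 2150 (lowest), 2980 (median) and 3770 (highest) in pre-BI cells. It did not differ detectably from large pre-BII cells (2280 to 3400, adjusted p = 0.982) and was 3.2-fold lower than in mature cells (8970 to 9570, adjusted p = 2.17e-09).

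Of the 10300 probe sets, 30 (0.291%) were higher in pre-BI cells than in every other population and 20 (0.194%) were lower, 0.485% in both directions together. The 30 stood for 27 genes and 1 probe set without a symbol. The 20 stood for 10 genes and 9 probe sets without a symbol. At an unadjusted p under 0.05 the counts were 124 and 93. Without normalisation between arrays 11 were higher and 7 lower. With the floor of the fit at the noise limit 46 were higher and 16 lower. Against single populations many more differed: 103 higher (1%) and 90 lower (0.874%) against large pre-BII cells, 465 (4.51%) and 339 (3.29%) against small pre-BII cells, 449 (4.36%) and 437 (4.24%) against immature cells, and 621 (6.03%) and 483 (4.69%) against mature cells. Pre-BI and large pre-BII preparations of 1 sort number were taken as paired, but the counts above come from a fit without a block. With sort number as a block 327 probe sets differed between these populations in place of 193.

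**Figure D1:**
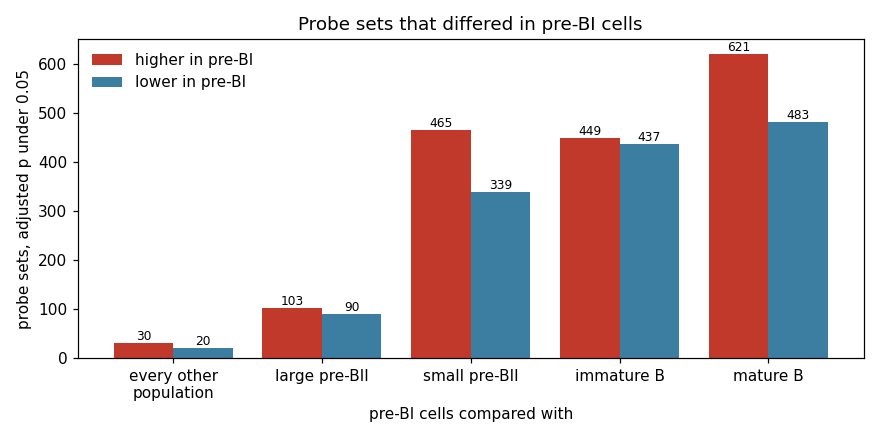
Number of probe sets (y axis) that were higher (red) or lower (blue) in pre-BI cells than in the population named on the x axis, of 10300 tested, at an adjusted p under 0.05. The leftmost pair, 30 and 20, counts those that passed against all 4 populations, and the bars against large pre-BII cells, 103 and 90, are the lowest of the single comparisons.

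Large pre-BII cells were the population nearest to pre-BI cells for most of these transcripts. Their mean, of levels not raised to the limit, was the closest of the 4 for 17 of the 30 that were higher and for 16 of the 20 that were lower. The same shares over all tested probe sets were not taken. Immature cells were closest for 6 and 1, mature cells for 5 and 3, and small pre-BII cells for 2 and 0. The median log2 difference of the 30, on values raised to the limit, was 1.4 against large pre-BII, 1.67 against small pre-BII, 1.45 against immature and 1.55 against mature cells. For the 20 it was −1.47, −2.4, −2.2 and −2.29 in the same order. All 6 pre-BI preparations lay above all 20 others in 18 of the 30, values under the limit being given no order, and below them in 16 of the 20. Over all tested probe sets 37 (0.359%) were separated upwards and 18 (0.175%) downwards in this way, or 41 (0.398%) and 20 (0.194%) with values under the limit ordered too. For 7 of the 30, no preparation outside the pre-BI group exceeded the noise limit, so which mean was closest has no weight there.

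The surrogate light chain genes Vpreb1 and Igll1 were separate from all other populations but missed the threshold of the joint test. Vpreb1 was at 3630 (lowest), 4390 (median) and 5730 (highest) in pre-BI cells, against 331, 765, 799, 962 and 1060 in large pre-BII cells and −143 to 735 in the other 3. Igll1 was at 1220 (lowest), 2840 (median) and 6160 (highest), against 67.1, 130, 385, 703 and 858 in large pre-BII cells and −303 to 238 in the other 3. Neither gene overlapped between pre-BI cells and the rest. Against large pre-BII cells Vpreb1 was 6.12-fold higher (log2 difference 2.61 ± 0.31 SE, adjusted p = 0.0266) and Igll1 5.93-fold higher (2.57 ± 0.52 SE, adjusted p = 0.0417). Against every other population the adjusted p was 0.0731 for Vpreb1 and 0.119 for Igll1. With the floor of the fit raised to the noise limit both passed, at 9.67e-08 and 7.11e-06, as did the second Dntt probe set, at 1.13e-04. With sort number as a block Vpreb1 passed as well (adjusted p = 0.0379). Vpreb3, a related gene, was at 5360 to 8900 in pre-BI cells and differed from mature cells alone (63.1 to 1780, 11.4-fold, adjusted p = 1.67e-08).

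Over all 5050 genes tested, each by its brightest probe set, 26 (0.515%) were higher than in every other population and 10 (0.198%) lower, and the counts of gene lists stand beside these. Of 7 tested genes of V(D)J recombination, Dntt was the 1 that was higher. The genes Vpreb1, Igll1, Vpreb3 and Rag1 were picked after their values were seen. Rag1, a subunit of the recombinase, had its lowest, median and highest pre-BI levels at 1250, 2220 and 3740. It was at least 8.6-fold higher than in immature cells (96.4 to 186, adjusted p = 2.29e-11) and in mature cells (−135 to 17.3, adjusted p = 1.6e-12). In small pre-BII cells, where light chain genes are joined, Rag1 stood at 2940 to 8190, and pre-BI cells were 2.23-fold lower (adjusted p = 0.0194). The large pre-BII levels of 762 to 2200 overlapped with those of pre-BI cells (adjusted p = 0.163).

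The metabolic enzymes Ada, Pnp, Phgdh and Mgst2 were higher in pre-BI cells than in every other population. Ada, adenosine deaminase, had 518 (lowest), 1090 (median) and 1150 (highest) in pre-BI cells, against 23.9, 123, 123, 181 and 328 in large pre-BII cells and −184 to 174 in the other 3. The groups did not overlap, and the fold was 3.32 against large pre-BII cells (log2 difference 1.73 ± 0.23 SE) and at least 3.5 against the rest (adjusted p = 6.36e-05). Pnp, purine nucleoside phosphorylase, which acts after Ada in the breakdown of purines, had 5350 (lowest), 7040 (median) and 11800 (highest) in pre-BI cells. It had 1830, 2450, 2530, 2610 and 3020 in large pre-BII cells and 1110 to 2900 in the other 3, again with no overlap. Pnp was 3-fold higher than in large pre-BII cells (1.58 ± 0.20 SE) and 4.24-fold higher than in small pre-BII cells (adjusted p = 2.65e-05).

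The promoter of Ada is shown because it holds the E-box CAGGTG, a motif bound by E proteins, at 2 places, bases 73 and 109, of which that at 109 is printed as its reverse complement. It was chosen for display after the matches were known. It lies at chr2:163750190-163750489 on the minus strand of GRCm38.p6 (RefSeq), and capitals mark the matches:
Ada promoter: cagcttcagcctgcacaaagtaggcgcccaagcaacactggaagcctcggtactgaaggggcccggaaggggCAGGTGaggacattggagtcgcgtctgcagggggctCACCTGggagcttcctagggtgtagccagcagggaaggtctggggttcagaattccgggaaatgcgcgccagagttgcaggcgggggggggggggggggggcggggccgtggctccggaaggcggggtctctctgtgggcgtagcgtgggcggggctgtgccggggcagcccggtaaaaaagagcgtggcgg

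Phgdh, which carries out the first step of serine synthesis, was at 1210 (lowest), 2030 (median) and 2510 (highest) in pre-BI cells, against 306, 667, 835, 865 and 1130 in large pre-BII cells and 304 to 918 in the other 3. It was 2.66-fold higher than in large pre-BII cells (1.41 ± 0.37 SE) and 4.12-fold higher than in mature cells (adjusted p = 0.0288). The groups were separate, but the call was lost without pre-BI sort 3, 8, 9 or 10 or large pre-BII sort 1 or 9, each left out alone (adjusted p up to 0.176). Mgst2, a microsomal glutathione transferase, was at 1790 (lowest), 2870 (median) and 3530 (highest) in pre-BI cells. Its nearest population was immature B, at 134, 356, 457, 665 and 920, and the other 3 lay between −201 and 690. The fold was 5.66 against immature cells (2.50 ± 0.36 SE) and 9.95 against large pre-BII cells (adjusted p = 0.00657). A second Mgst2 probe set passed too (adjusted p = 0.0238). Mgst2 was the 1 of 21 tested genes of glutathione metabolism and detoxification that was higher than in every other population, where 26 of all 5050 genes were.

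Several of the leading transcripts encode proteins of the membrane or of the cell cortex. Emp1, a small membrane protein with 4 spans, was at 1910 (lowest), 3000 (median) and 4600 (highest) in pre-BI cells. Large pre-BII cells had 245, 311, 370, 443 and 836, and the other 3 populations 124 to 525. With no overlap, the fold ran from 7.49 against large pre-BII (2.90 ± 0.34 SE) to 11.3 against immature cells (adjusted p = 1.12e-05). Frmd6, a FERM domain protein that links the membrane to the cytoskeleton, was at 849 (lowest), 1400 (median) and 1830 (highest). Immature cells, the nearest, had 89.3, 130, 130, 160 and 283, and the other 3 had −149 to 161. Frmd6 had the lowest adjusted p among transcripts that were higher (4.73e-07), with a fold of 5.04 against immature cells (2.33 ± 0.18 SE) and at least 5.16 against the rest.

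The Emp1 promoter is shown because it holds CTTTGAA, a motif of Lef1 and the related Tcf factors, at bases 133 to 139. It was likewise chosen after the matches were known. The window belongs to the first of 2 starts in the table, at chr6:135362681-135362980 on the plus strand of GRCm38.p6 (RefSeq), with the match in capitals:
Emp1 promoter: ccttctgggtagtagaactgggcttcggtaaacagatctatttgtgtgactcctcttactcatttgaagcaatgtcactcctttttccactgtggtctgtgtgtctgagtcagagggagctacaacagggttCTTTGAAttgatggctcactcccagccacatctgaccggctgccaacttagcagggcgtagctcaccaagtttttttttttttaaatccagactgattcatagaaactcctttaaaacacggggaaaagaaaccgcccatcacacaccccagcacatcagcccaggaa

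Anxa1, a calcium-dependent phospholipid binding protein, was at 1960 (lowest), 2550 (median) and 3760 (highest) in pre-BI cells, against 348, 411, 470, 583 and 1010 in mature cells and 142 to 769 in the other 3. It was 4.75-fold higher than in large pre-BII cells (2.25 ± 0.23 SE) and 7.04-fold higher than in immature cells (adjusted p = 3.92e-04). Tiam1, an activator of the small GTPase Rac, was at 1140 (lowest), 1860 (median) and 2320 (highest). Large pre-BII cells had 215, 373, 396, 501 and 691 and the other 3 populations −36.8 to 478. For Tiam1 the fold was 4.18 against large pre-BII cells (2.06 ± 0.28 SE) and at least 6.84 against immature and mature cells (adjusted p = 0.0053). Both transcripts were separate from all others in every preparation.

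Eng, endoglin, a coreceptor for proteins of the TGF-beta family, was at 709 (lowest), 986 (median) and 1630 (highest) in pre-BI cells. No other preparation exceeded 126, well under the limit of 319, so that a bound of at least 3.33-fold applies to all 4 comparisons (adjusted p = 5.32e-05). Emb, embigin, a membrane protein of the immunoglobulin superfamily, was at 511 (lowest), 601 (median) and 1100 (highest), against 28.4, 80.6, 116, 160 and 312 in immature cells and −1.52 to 233 elsewhere. Its fold was 2.5 against immature cells (1.32 ± 0.17 SE) and at least 2.61 against the rest (adjusted p = 3.92e-04). AU020206 was at 2090 (lowest), 3560 (median) and 5310 (highest), against 1170, 1220, 1480, 1800 and 1960 in mature cells and 467 to 1960 in the other 3. The lowest pre-BI value of AU020206 lay just above the highest of the others, and the fold was 2.37 against mature cells (1.24 ± 0.24 SE, adjusted p = 0.0141). Its call was lost without pre-BI sort 1, mature sort 1 or mature sort 11 (adjusted p up to 0.0603).

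Crip1, a LIM domain protein, was higher by both of its probe sets, without full separation. By the one of the b set it was at 2140 (lowest), 2600 (median) and 4710 (highest) in pre-BI cells. It was at 675, 828, 976, 1290 and 2210 in large pre-BII cells and at 356 to 1390 in the other 3. Large pre-BII sort 1 overlapped with pre-BI cells. The fold was 2.6 against immature cells (1.38 ± 0.27 SE) and 5.57 against small pre-BII cells (adjusted p = 0.0198), and the call was lost without pre-BI sort 1 or 10, large pre-BII sort 2, 8 or 9, or immature sort 1 or 9 (adjusted p up to 0.102). Both probe set names end in _f_at, an ending given to probes that a family of similar sequences can share, so related transcripts may add to the signal. The same limit holds for the probe sets of Mif, Fkbp1a, Rrm2, Tuba1a, H2-Aa and Hba-a1 named further on, which bear this ending too. Of 45 tested genes of adhesion, matrix and cytoskeleton, Emp1, Frmd6 and Anxa1 were higher than in every other population, and Icam2 and S100a10, described further on, were lower, where 26 and 10 of all 5050 genes were.

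**Figure D2:**
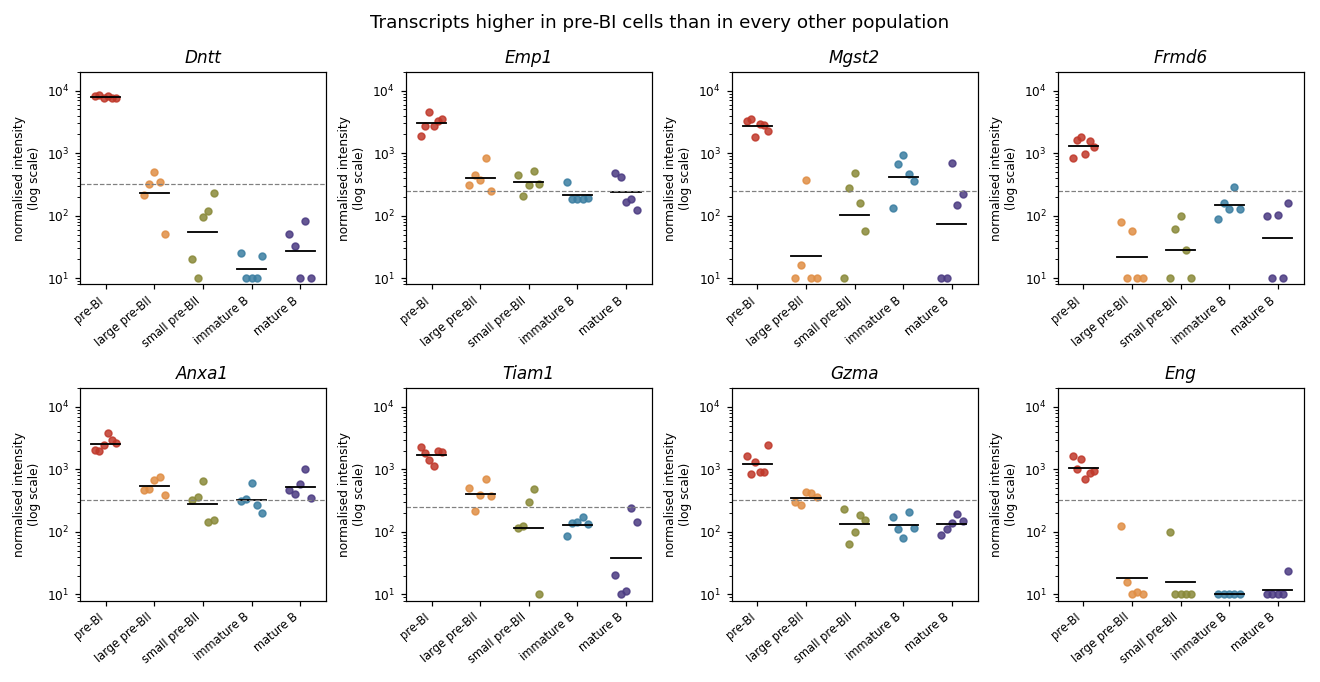
Normalised intensity (y axis, log scale) of the 8 genes with the largest difference upwards, for each preparation (points) of the 5 populations from pre-BI at the left to mature B at the right; bars are geometric means, the dashed line is the noise limit of the array set (251 or 319), and values under 10 are drawn at 10. The 6 pre-BI points lie above all others in each panel, with Dntt at 7590 to 8470 against at most 498.

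Gzma and Fcer1g, which are best known from cytotoxic and from myeloid cells, were also higher in pre-BI cells. Gzma, granzyme A, was at 836 (lowest), 1100 (median) and 2420 (highest) in pre-BI cells, against 267, 297, 356, 415 and 431 in large pre-BII cells and 63.1 to 232 in the other 3. Sort 10 gave the 2420. The groups did not overlap, and the fold was 3.38 against large pre-BII cells (1.76 ± 0.26 SE) and at least 3.87 against the rest (adjusted p = 0.0173). The Gzma call was lost without pre-BI sort 1, without pre-BI sort 10, and without large pre-BII sort 1 or 2 (adjusted p up to 0.079). Fcer1g, the signalling chain shared by Fc receptors, was at 1660 (lowest), 3170 (median) and 6340 (highest), the highest again in sort 10. Mature cells had 1230, 1380, 1400, 1500 and 1660 and the other 3 populations 739 to 1870, so that pre-BI sort 9 overlapped with them. Fcer1g was 2.26-fold higher than in mature cells (1.18 ± 0.27 SE) and 3.05-fold higher than in small pre-BII cells (adjusted p = 0.0296), a call lost without pre-BI sort 1, 2, 3 or 10, immature sort 2, 8 or 9, or mature sort 1, 3, 8 or 9 (adjusted p up to 0.124).

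Markers of other cell types were read beside these transcripts. Of 13 listed T and NK cell genes 7 were tested, and 2 of them, Gzma and Thy1, were higher than in every other population (26 of all 5050 genes). Summed over the 7, levels were 1170 to 3410 in pre-BI cells, against 736 to 1150 in large pre-BII, 498 to 1430 in small pre-BII, 309 to 765 in immature and 195 to 569 in mature cells. Without Gzma and Thy1 the sums were 148 to 599 in pre-BI cells, against 405 to 798, 249 to 1270, 198 to 650 and 106 to 432 in the same order. These 2 genes were taken out because they were higher in pre-BI cells, so a smaller pre-BI sum was fixed in advance. Cd3d and Cd3g, chains of the T cell receptor complex, exceeded the noise limit in no preparation of any population, and Cd3e in no pre-BI preparation. Thy1 itself was at 110 (lowest), 253 (median) and 569 (highest) in pre-BI cells, with 2 of 6 above the limit, against −460 to 37 elsewhere (adjusted p = 3.23e-04).

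Markers of myeloid progenitors and granulocytes summed to 6190 to 19800 in pre-BI cells, the highest in sort 10. The sums were 4170 to 10600 in large pre-BII, 4000 to 5630 in small pre-BII, 5440 to 7790 in immature and 7420 to 11600 in mature cells. Of 10 tested genes none was higher or lower than in every other population by limma (1 at an unadjusted p under 0.05). Lyz2, lysozyme, was at 4120 (lowest), 4770 (median) and 8970 (highest) in pre-BI cells and exceeded the level of small pre-BII cells (1360 to 2360, 3.06-fold, adjusted p = 1.39e-05) but not detectably that of mature cells (3080 to 4510, adjusted p = 0.206). Mpo, myeloperoxidase, exceeded the limit in no preparation. Mast cell and basophil markers summed to 731 to 1260 in pre-BI cells and to 719 to 1440 in the other populations. The part of other cells in the results for Gzma, Thy1, Fcer1g and Ccl5, a chemokine that pre-BI sort 10 held at 2200 against 69.6 to 336 in the other 5 pre-BI preparations, was not tested. Without pre-BI sort 10, 21 probe sets were higher than in every other population, all of them among the 30, and 21 were lower.

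**Figure D3:**
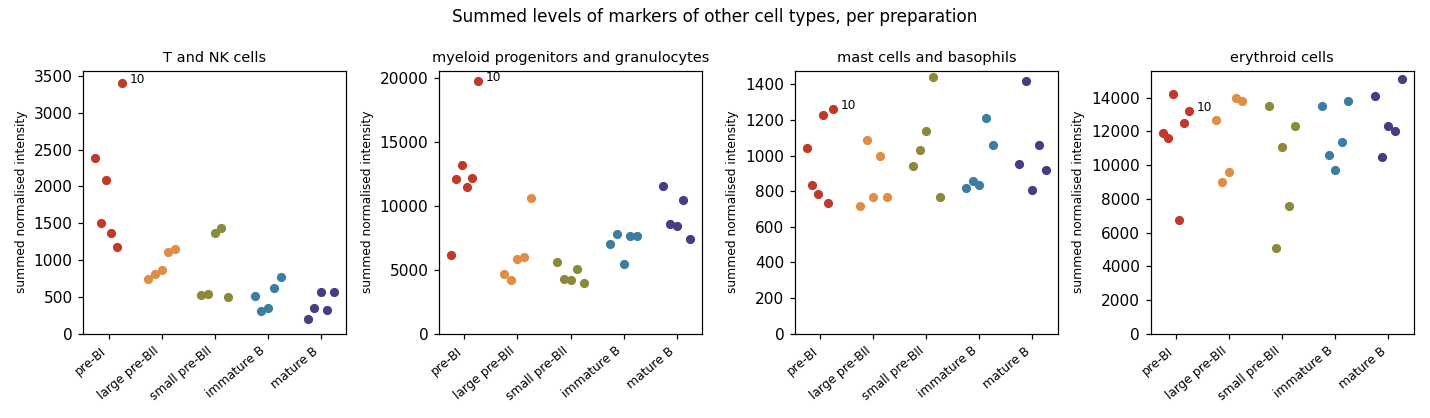
Sum of normalised intensities (y axis, linear scale from 0) over the tested markers of 4 other cell types in each preparation (points), by population from pre-BI to mature B; pre-BI sort 10 is numbered. Sort 10 had the highest sum for T and NK cells (3410) and for myeloid progenitors and granulocytes (19800), while the ranges of mast cell and erythroid markers overlapped between all populations.

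The remaining transcripts higher in pre-BI cells than in every other population were smaller in difference or near the noise limit. They were Tbxa2r, Mif, Ramp1, Ankrd33b, Fkbp1a, Socs2, Ctnna1, Abr, Ccl5, Adgrg3, Thy1, Csf2rb2 and 1 probe set without a symbol, d14636_s_at. Values of 4 of them follow, picked after the values were seen. Tbxa2r, the thromboxane receptor, was at 472 to 741 in pre-BI cells, against −41 to 389 elsewhere (adjusted p = 0.00475). Fkbp1a, a binding protein of immunosuppressive macrolides, was at 1580 to 2110, against 374 to 1040 elsewhere, 2.03-fold higher than in large pre-BII and 2.89-fold higher than in mature cells, without overlap (adjusted p = 0.0224). Ctnna1, alpha catenin, was at 4820 to 7040, against 1610 to 3880, and also separate (adjusted p = 0.0311). Csf2rb2, a cytokine receptor chain, exceeded the limit in 1 of 6 pre-BI preparations (adjusted p = 0.044).

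Transcripts that were lower in pre-BI cells than in every other population included surface and signalling genes of B cells. Fcrla, a relative of Fc receptors made in B lineage cells, was at 158 (lowest), 220 (median) and 265 (highest) in pre-BI cells, with 1 of 6 above the limit. It was at 934, 966, 1120, 1140 and 1760 in mature cells and at 927 to 3580 in the other 3. The groups lay far apart, and pre-BI cells were 4.54-fold lower than mature (log2 difference −2.18 ± 0.16 SE) and 10.2-fold lower than small pre-BII cells (adjusted p = 3.74e-05), folds that are against the noise limit in 5 of the 6 pre-BI preparations and understate the difference. Blk, a Src family kinase of B cells, was at 1570 (lowest), 2560 (median) and 3020 (highest), against 4840, 5860, 5890, 6140 and 6550 in large pre-BII cells and 6850 to 14000 in the other 3. Blk was 2.57-fold lower than in large pre-BII cells (−1.36 ± 0.18 SE) and 4.63-fold lower than in immature cells (adjusted p = 5.32e-05), while its dimmer probe set, at 140 to 225 in pre-BI cells against 317 to 1410 elsewhere, missed the threshold (adjusted p = 0.0586) but passed with sort number as a block (adjusted p = 0.0335).

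The Fcrla promoter is shown because Fcrla passed downwards with the largest difference on the same scale and its window holds both CAGGTG, at bases 182 to 187, and TATAAA, the core of the TATA box, at bases 278 to 283. This window too was chosen after the matches were known. It lies at chr1:170927534-170927833 on the minus strand of GRCm38.p6 (RefSeq), with matches in capitals:
Fcrla promoter: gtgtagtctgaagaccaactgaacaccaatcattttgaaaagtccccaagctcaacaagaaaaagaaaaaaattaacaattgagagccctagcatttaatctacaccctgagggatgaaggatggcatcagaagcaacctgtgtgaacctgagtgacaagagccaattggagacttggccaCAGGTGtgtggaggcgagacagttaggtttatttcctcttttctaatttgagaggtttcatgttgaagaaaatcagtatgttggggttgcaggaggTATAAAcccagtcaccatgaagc

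Nfkbia, Traf5 and Tirap were lower as well. Nfkbia, which encodes the inhibitor that holds NF-kappaB in the cytoplasm, was at 338 (lowest), 431 (median) and 579 (highest) in pre-BI cells. It was at 1130, 1180, 1320, 1570 and 1910 in large pre-BII cells and at 893 to 3370 in the other 3. Pre-BI cells were 3.29-fold lower than immature (−1.72 ± 0.25 SE) and 6.19-fold lower than small pre-BII cells (adjusted p = 5.32e-05), and the second Nfkbia probe set passed too (adjusted p = 2.18e-04). Traf5, an adaptor of TNF receptors, was at 194 (lowest), 305 (median) and 447 (highest), against 660, 842, 856, 861 and 949 in large pre-BII cells and 1030 to 2470 in the other 3. Traf5 was 2.5-fold lower than in large pre-BII cells (−1.32 ± 0.18 SE) and 5.95-fold lower than in mature cells (adjusted p = 0.00141). Tirap, an adaptor of Toll-like receptors, was at −143 (lowest), 96.6 (median) and 320 (highest), against 304, 361, 376, 527 and 531 in mature cells and 512 to 1110 in the other 3. Pre-BI sort 8 overlapped with mature sort 1, and the fold was 1.56 against mature cells (−0.65 ± 0.17 SE) and 3.2 against immature cells (adjusted p = 0.00657). With the floor of the fit at the noise limit the Tirap call was lost (adjusted p = 0.46).

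Klf2, a transcription factor of quiescent lymphocytes, was at 483 (lowest), 1050 (median) and 1150 (highest) in pre-BI cells, against 2630, 2960, 3020, 3400 and 3630 in large pre-BII cells and 2640 to 10200 in the other 3. No preparation overlapped, with folds of 3.37 below large pre-BII (−1.75 ± 0.21 SE) and 5.26 below mature cells (adjusted p = 2.76e-04). Klf2 was the 1 of 15 tested B lineage transcription factors that was lower than in every other population, and Blk the 1 of 20 of B cell receptor signalling, where 10 of all 5050 genes were. Of 21 tested genes of the mature B cell surface it was Cd2, an adhesion molecule that mouse B lineage cells acquire with maturation. Cd2 was at −166 to 52.2 in pre-BI cells, with none above the limit of 319. Large pre-BII cells ranged from 116 to 746 and the later populations from 735 to 3760. The fold was at least 1.35 below large pre-BII and at least 6.75 below small pre-BII cells (adjusted p = 3.3e-05). The Cd2 call was lost with the floor of the fit at the noise limit (adjusted p = 1).

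Icam2, an adhesion molecule bound by the integrin LFA-1, was at 262 (lowest), 636 (median) and 732 (highest) in pre-BI cells, against 926, 1090, 1170, 1250 and 1270 in large pre-BII cells and 991 to 2050 in the other 3. It was 1.97-fold lower than in large pre-BII cells (−0.98 ± 0.20 SE) and 3.4-fold lower than in mature cells (adjusted p = 0.0184), a call lost without large pre-BII sort 1, 9 or 10 (adjusted p up to 0.0702). Iah1, an esterase, was at 79.3 (lowest), 194 (median) and 265 (highest), against 298, 350, 485, 570 and 634 in large pre-BII cells and 396 to 1050 in the other 3 (1.78-fold lower than in large pre-BII cells, adjusted p = 0.041). S100a10, a partner of annexin A2, was at 823 to 1560 in pre-BI cells, against 1460 to 3580 elsewhere, with pre-BI sort 10 inside the range of the others (adjusted p = 0.0449). Its other probe set, at 622 to 1660 against 676 to 2810, did not pass (adjusted p = 1). Leaving out 1 preparation at a time, the call of Iah1 was lost in 14 of 26 fits (adjusted p up to 0.173): without pre-BI sort 1, 8 or 10, large pre-BII sort 2, 9 or 10, or any immature or mature preparation other than immature sort 1 and mature sort 11. The call of S100a10 was lost in 20 of 26 (adjusted p up to 0.256) and held without pre-BI sort 10, large pre-BII sort 2, small pre-BII sort 1 or 8, immature sort 2 or mature sort 1. The S100a10 probe sets bear the _f_at ending too.

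The 9 probe sets without a symbol included some of the largest differences downwards. Probe set V00802_f_at was at 591 to 1650 in pre-BI cells, against 2680 to 19300 in the other populations. Probe set ET62056_f_at was at 239 to 436, against 864 to 14700. Neither overlapped, and both are named by their ID since no gene is paired with them in the tables used.

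**Figure D4:**
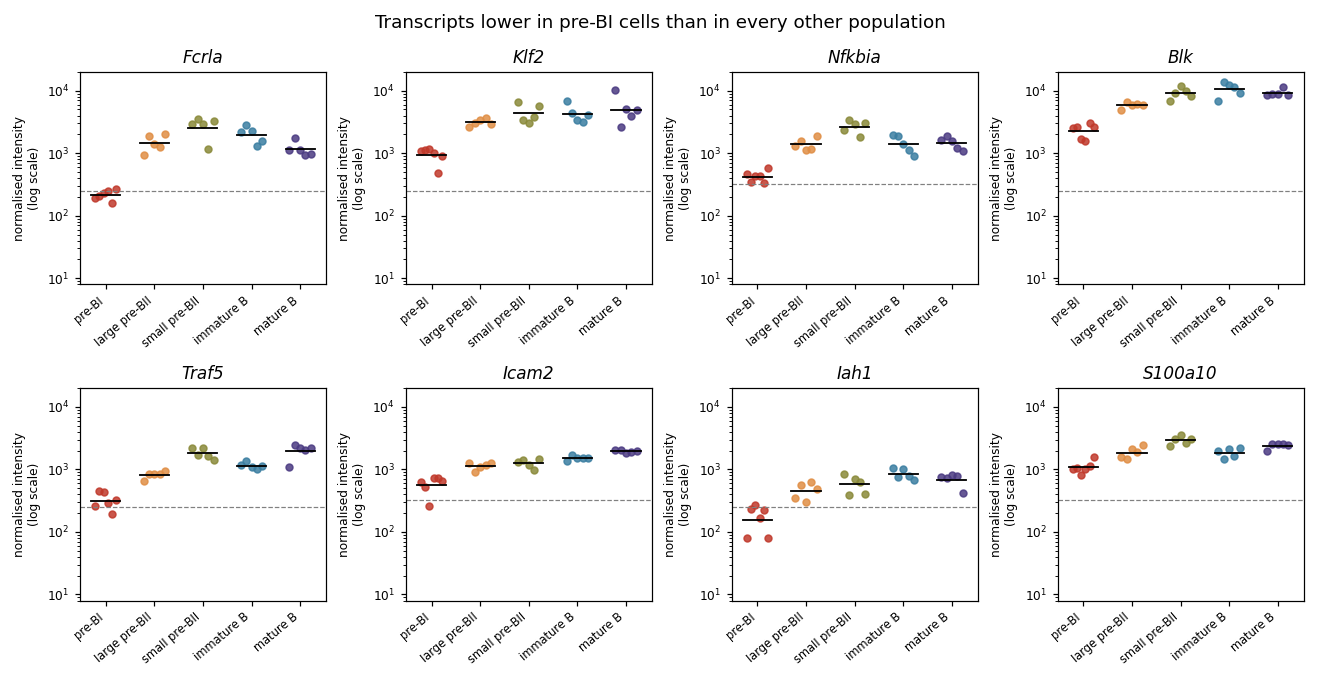
Normalised intensity (y axis, log scale) of 8 genes lower in pre-BI cells than in every other population, for each preparation (points) from pre-BI at the left to mature B at the right; bars are geometric means, the dashed line is the noise limit of the array set (251 or 319), and values under 10 are drawn at 10. Pre-BI points lie below all others in 7 panels, and in the S100a10 panel the pre-BI range of 823 to 1560 meets the other range of 1460 to 3580.

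**Figure D5:**
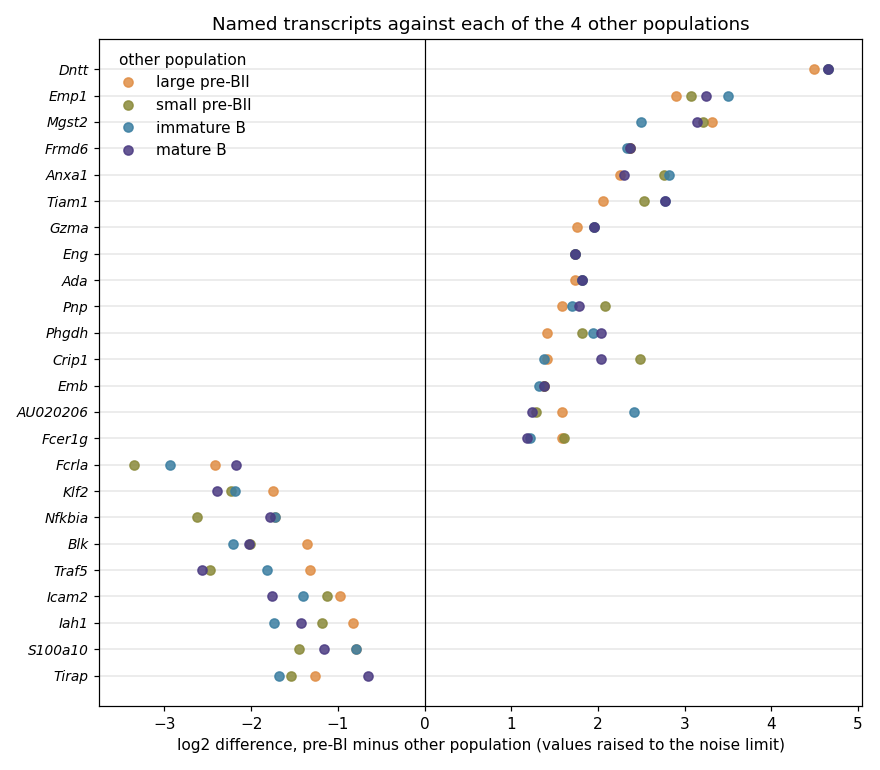
Log2 difference, pre-BI minus the other population, on values raised to the noise limit (x axis), for the 15 named genes that were higher and the 9 that were lower in pre-BI cells (rows); each point is 1 of the 4 other populations, and points coincide where all of a gene's comparisons end at the limit, as for Eng. Dntt lies farthest to the right at 4.49 to 4.65, and the left end is Fcrla against small pre-BII cells at −3.35.

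Differences from single populations are given next, and a comparison that did not pass does not show an equal level. Of all tested probe sets, 226 were higher in pre-BI than in small pre-BII, immature and mature cells without passing upwards against large pre-BII cells, and 141 were lower in the same way. Of all 5050 genes tested, 87 were higher and 55 lower than in large pre-BII, 301 and 215 than in small pre-BII, 299 and 276 than in immature, and 412 and 296 than in mature cells. Of 27 tested DNA replication genes 21 were higher than in small pre-BII cells, 21 higher than in immature and 20 higher than in mature cells, and none passed against large pre-BII cells by limma (3 at an unadjusted p under 0.05). Their median log2 difference was −0.14 against large pre-BII, 1.25 against small pre-BII, 1.33 against immature and 1.53 against mature cells, where the median of all 5050 tested genes was 0 in each. Rrm2, a subunit of ribonucleotide reductase, was at 5420 (lowest), 8090 (median) and 10300 (highest) in pre-BI cells, against 7090 to 12300 in large pre-BII cells, which overlapped (adjusted p = 0.988). It stood at 106 to 625 in immature cells, which pre-BI cells exceeded 18-fold (adjusted p = 2.8e-09). Of the other 3 Rrm2 probe sets, 1 was near the noise limit throughout and did not pass (adjusted p = 0.134).

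Of 31 tested mitosis genes 23, 26 and 27 were higher in pre-BI than in small pre-BII, immature and mature cells, while 6 were lower than in large pre-BII cells. Over all 5050 genes these counts were 301, 299 and 412 higher and 55 lower. The list's median log2 difference from large pre-BII cells was −1. Nusap1, a spindle protein, was at 2300 (lowest), 3930 (median) and 5220 (highest) in pre-BI cells, against 6000 to 8540 in large pre-BII cells (adjusted p = 0.435), and at least 14.4-fold above immature cells (adjusted p = 4.4e-09). H2ax, a histone variant, was at 1880 to 5510 in pre-BI cells, 3.16-fold lower than in large pre-BII cells (10000 to 15300, adjusted p = 0.02) and 8.52-fold higher than in small pre-BII cells (273 to 736, adjusted p = 1.44e-06). The second H2ax probe set was 2.34-fold lower than in large pre-BII (adjusted p = 0.00467) and 3.03-fold higher than in small pre-BII cells (767 to 1270, adjusted p = 3.45e-05). Tuba1a, an alpha tubulin, was at 9480 to 12200 in pre-BI cells, against 498 to 2960 in small pre-BII cells (10.6-fold, adjusted p = 4.61e-09). Its probe set has the _f_at ending, so related transcripts may add to the signal. By limma no replication or mitosis gene was higher or lower than in every other population (1 and 0 at an unadjusted p under 0.05).

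Next are the leading genes against large pre-BII cells, among those that did not pass in 1 direction against every population. Stat4, a transcription factor of cytokine signalling, was at 732 (lowest), 897 (median) and 1120 (highest) in pre-BI cells, against −40 to 141 in large pre-BII cells (at least 3.62-fold, adjusted p = 7.18e-07). Mature cells had Stat4 at 1010 to 1890, overlapping with pre-BI cells (adjusted p = 0.572). Tuba4a, another alpha tubulin, was 4.06-fold higher than in large pre-BII cells (1720 to 4890 against 538 to 1260, adjusted p = 4.44e-04), and Bin1, a membrane-bending adaptor, 4.67-fold (1030 to 3650 against 79.4 to 819, adjusted p = 0.00321), though a second Bin1 probe set did not pass (adjusted p = 0.857). Myl4, a myosin light chain, was 7.5-fold lower than in large pre-BII cells (433 to 949 against 3400 to 5660, adjusted p = 6.89e-08), but at least 2.37-fold higher than in mature cells (31.9 to 200, adjusted p = 1.09e-07). Irf4, an interferon regulatory factor that acts on light chain genes, was 4.23-fold lower than in large pre-BII cells (302 to 1180 against 2270 to 3530, adjusted p = 4.33e-04). Irf4 was also 6.67-fold lower than in small pre-BII cells (1750 to 8190, adjusted p = 1.47e-06). Cdkn3, a phosphatase of cyclin-dependent kinases, was 3.75-fold lower than in large pre-BII cells (118 to 834 against 1380 to 2610, adjusted p = 0.00272). Like most tested mitosis genes, Cdkn3 was higher than in small pre-BII (adjusted p = 0.00727), immature (adjusted p = 1.44e-04) and mature cells (adjusted p = 1.82e-04).

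Against immature and mature cells most tested genes of antigen presentation and of the mature B cell surface were lower in pre-BI cells. Of 11 tested MHC class II and presentation genes 2 were lower than in large pre-BII, 3 lower than in small pre-BII, 8 lower than in immature and 10 lower than in mature cells, with 1, Ctss, higher than in large pre-BII cells. Of 21 tested genes of the mature B cell surface and survival 1, 7, 14 and 17 were lower in the same order. Of all 5050 genes 55, 215, 276 and 296 were. H2-Eb1, a class II beta chain, was at −869 to 347 in pre-BI cells, against 13100 to 16800 in mature cells (46.1-fold against values raised to the limit, which 1 of 6 pre-BI preparations exceeded, adjusted p = 1.09e-07), while its second probe set differed 2.08-fold (adjusted p = 0.0034). H2-Aa (31.9-fold, adjusted p = 2.94e-14) and H2-Ab1 (30.2-fold, adjusted p = 1.25e-06) were lower than in mature cells by the probe sets the naming rule takes. Cd74, the invariant chain, was at 323 to 2190 in pre-BI cells, against 13100 to 21600 in immature cells (22.1-fold, adjusted p = 2.29e-11). In 2 immature and 3 mature preparations Cd74 held the top value of the normalised scale, 21600, so that its fold is limited by that scale. Ms4a1, which encodes CD20, was at −84.8 to 60.8, against 5270 to 8970 in immature cells (at least 27.8-fold, adjusted p = 2.82e-15). A second Ms4a1 probe set read 1130 to 4090 in pre-BI cells, against 8900 to 13800 in immature cells (4.87-fold, adjusted p = 1.3e-08). Scd1, a fatty acid desaturase, was at 97 to 457, against 5200 to 17400 in immature cells (35.2-fold, adjusted p = 1.53e-11).

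Some genes marked the step to small pre-BII or out of the precursor stages. Samhd1, a nucleotide hydrolase, was at 187 to 424 in pre-BI cells, 9.43-fold lower than in small pre-BII (2080 to 4610, adjusted p = 1.11e-10) and not detectably lower than in large pre-BII cells (381 to 988, adjusted p = 0.0991). Reln, a secreted glycoprotein, was at −55.5 to 121 in pre-BI cells, against 1200 to 3330 in small pre-BII cells (at least 7.6-fold, adjusted p = 5.37e-11). Polm, a polymerase of end joining related to terminal transferase, was at 683 to 2120, against 5440 to 11700 in small pre-BII cells (7.49-fold lower, adjusted p = 1.05e-08). Ptgr1, prostaglandin reductase, and Myb, a transcription factor of progenitors, did not differ detectably from either pre-BII population (adjusted p = 0.111 or above). Ptgr1 was at 4790 to 6630 in pre-BI cells, against −268 to 30 in mature cells (at least 21.8-fold, adjusted p = 5.48e-18). Myb was at 6280 to 9960, against 175 to 650 in mature cells (20-fold, adjusted p = 1.56e-14). A second Myb probe set was above the limit in no pre-BI preparation and did not pass (adjusted p = 0.0729).

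Counts for further lists follow, beside those over all genes. Of 19 tested receptors and surface genes of progenitors Eng and Thy1 were higher than in every other population, and of 20 tested progenitor transcription factors none was higher or lower by limma (3 at an unadjusted p under 0.05), where 26 and 10 of all 5050 genes were. None of 33 genes of ribosome biogenesis passed against every population by limma (4 at an unadjusted p under 0.05). Of these, 3 were higher than in large pre-BII, 10 higher than in small pre-BII, 7 higher than in immature and 11 higher than in mature cells, where 87, 301, 299 and 412 of all 5050 genes were.

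Promoters of 300 bases were found in the RefSeq table for 23 of the 27 genes that were higher, 6 of the 10 that were lower and 4040 of the 5050 tested. Each was searched on both strands for 8 motifs. The E-box CAGGTG was present in 8 of 23 (34.8%) of the higher and 2 of 6 (33.3%) of the lower genes, against 20.7% of all tested genes. A gene counts if any of its promoters holds the motif. By promoter CAGGTG was in 26.7% for the higher genes, against 17.9% of all. The E-box CAGCTG was present in 21.7% of the higher and 16.7% of the lower genes, against 18.1% of all. The E-box CACGTG was present in 4.35% of the higher genes, against 12.2%. The Lef1 and Tcf motif CTTTGAA was present in 8.7%, against 4.5%, and its variant CTTTGAT in 8.7%, against 3.24%. The TATA box core TATAAA was present in 17.4% of the higher and 2 of 6 (33.3%) of the lower genes, against 12% of all. No other motif was found in the lower genes. The cAMP response element TGACGTCA was present in 4.35% of the higher genes, against 3.44%, and the palindrome of Ebf1 in none, against 1.39%. These shares rest on few genes and are descriptions of the sequence.

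The sorts fell by number into 1 to 3 and 8 to 11, and the comparisons were repeated within each. Within sorts 1 to 3, 0 probe sets were higher and 1 was lower than in every other population by limma (60 and 38 at an unadjusted p under 0.05). Within sorts 8 to 11, 16 were higher and 11 lower than in every other population. Among the preparations of sorts 1 to 3, a set of 11 preparations that shares none with these, 12 of the 16 (75%) were above all 4 other means, as were 16.5% of all tested probe sets, and 11 of the 11 (100%) were below them, as were 15.5% of all. Normalisation, floor and filter had used all 26 preparations, so the 2 groups of sorts were not fully independent. The smallest of the 4 fitted log2 differences of Dntt was 4.95 within sorts 1 to 3 and 5.25 within sorts 8 to 11. For Ada it was 1.82 and 3.15, for Phgdh 0.79 and 1.93, for Klf2 −1.33 and −2.12, and for Blk −1.34 and −1.36. All 26 named genes kept their sign in both. That was nearly fixed in advance, since they had been called on both groups of sorts together. Within sorts 1 to 3 Cd2 kept its call and the other 25 did not. Within sorts 8 to 11 12 kept theirs, among them Dntt, Emp1, Frmd6, Eng, Ada, Pnp, Fcrla, Klf2 and Blk. The level of the 18S ribosomal RNA control probe set, as deposited, differed in median between these groups of sorts. It was 879.5 (87 to 4578) on first-set arrays of sorts 1 to 3 and 148 (−11 to 309) on those of sorts 8 to 11. On b-set arrays it was 941.5 (19 to 5296) and 174 (38 to 488). Its part in the results was not tested.

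Scaling and floor also ended calls among these 26 genes. On values as deposited, without scaling between arrays, 18 were lost (adjusted p 0.0529 to 1) and Dntt, Emp1, Frmd6, Anxa1, Eng, Pnp, Thy1 and Cd2 were kept. With the floor of the fit at the 25th percentile 10 were lost, namely Dntt (adjusted p = 0.131), Mgst2, Frmd6, Tiam1, Ada, Phgdh, Emb, Fcer1g, Iah1 and S100a10. With the floor at the noise limit 3 were lost, Iah1 (adjusted p = 0.231), Tirap and Cd2. Thy1 had too few preparations above that limit to be tested there, so its call was neither kept nor lost. Scaling to the 75th percentile ended the calls of Pnp (adjusted p = 0.0524), Phgdh, Crip1, Icam2, Iah1 and S100a10.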

How the data were processed

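RNA of sorted mouse bone marrow populations was measured on oligonucleotide arrays. The values are linear intensities deposited by the authors, 1 per probe set and array; no source used here gives how they were extracted, scanned, summarised or scaled. Of 13179 probe sets 7542 had 1 gene symbol in the platform annotation, 224 several and 5303 none, and 110 were controls. Each array set was quantile normalised, values were floored at the 40th percentile (87.6 and 6.89) and taken to log2, and arrays of a preparation were averaged. Probe sets above the floor in at least 5 preparations were tested, 10300 in all.

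Differences were fitted with limma 3.58.1 in R 4.3.3 (trended eBayes, Benjamini-Hochberg adjustment over all 10300), on all populations and without a block, and the script was tested on simulated data. Deviations of same-numbered sorts correlated at 0.11 to 0.3 between pre-BI and large pre-BII cells, and these were taken as paired. Against small pre-BII (−0.07 to 0.2), immature (0.02 to 0.16) and mature cells (0.06 to 0.24) they were not, though these ranges overlap with the first. The p-values given do not use the pairing, except where a block is named.

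Named genes were the 3 markers and Ptprc, up to 15 each way with the largest smallest-of-4 difference (all folds at least 1.5), called members of gene lists, the brightest markers of other cells, and the 3 leading genes each way of each single comparison. Vpreb1, Igll1, Vpreb3 and Rag1 were picked after their values were seen. The members and lists were chosen with earlier results of these data known. Alternatives were other scalings, floors, filters, blocks and batches, and each preparation left out.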

Additional observations from a re-analysis of the deposited data

Results flagged for a closer look

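Of 266 groups of preparations examined over the named genes, 22 had 1 preparation far from the others of its population by Dixon's test, where chance gives about 1 in 20. In pre-BI cells these were Emb in sort 9 at 1100 (others 511 to 677), Klf2 in sort 9 at 483 (901 to 1150), Tcf4 in sort 1 at 3680 (1650 to 2330) and Hba-a1 in sort 8 at 5890 (10500 to 13100). In large pre-BII cells they were Mgst2 in sort 8 at 372 (others −68.4 to 16.2), Lyz2 in sort 10 at 5470 (1880 to 2840), Ptgr1 in sort 2 at 8190 (3600 to 4600) and H2-Aa in sort 9 at 689 (362 to 443).

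In small pre-BII cells they were Fcer1g in sort 1 at 1870 (others 739 to 1060), Fcrla in sort 9 at 1170 (2890 to 3580), Stat4 in sort 1 at 398 (−23.7 to 89.2) and Scd1 in sort 9 at 4370 (623 to 1560). In immature cells they were Emp1 in sort 1 at 341 (others 184 to 190), Phgdh in sort 11 at 860 (370 to 470), Tcf4 in sort 11 at 1860 (825 to 1010) and Samhd1 in sort 1 at 2710 (4700 to 4930). In mature cells they were Fcrla in sort 3 at 1760 (others 934 to 1140), Blk in sort 9 at 11500 (8470 to 8900), Iah1 in sort 11 at 417 (725 to 822), S100a10 in sort 1 at 1950 (2450 to 2600), Tpsb2 in sort 3 at 826 (382 to 466) and Bin1 in sort 8 at 4080 (2220 to 2600).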

How the results depend on the processing

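The counts of 30 probe sets higher and 20 lower than in every other population depended on scaling and on the floor. On values as deposited they were 11 and 7. With the floor at the 25th percentile 15 were higher, and with it at the 60th percentile or at the noise limit 46. Within sorts 1 to 3 they were 0 and 1, and within sorts 8 to 11 16 and 11, with fewer samples in each fit. Set against the mean of the other 4 populations, which asks for less, they were 480 and 368. With sort number as a replicate block they were 39 and 28, and 27 and 20 of the 30 and 20 were among them. Leaving out 1 preparation gave 20 to 29 and 15 to 22. Without pre-BI sort 1 20 were higher, the lowest count.

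Against large pre-BII cells 193 probe sets differed, 49 on values as deposited, 327 with the replicate block, 2 among sorts 1 to 3 alone and 79 among sorts 8 to 11 alone, and 142 to 214 without 1 preparation. Against small pre-BII cells the deposited values gave 268 and sorts 1 to 3 gave 128 (707 to 826 without 1 preparation). Against immature cells these were 459 and 266 (764 to 921), and against mature cells 531 and 371 (951 to 1133). The block moved these 3 counts by less than 1.5 times, and the sorts were not taken as paired there. Why the counts moved with scaling and floor was not tested. No named difference reversed under any alternative. Dim transcripts are limited most, since 40% of first-set values and 20.1% of b-set values exceeded the noise limit.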

Other observations

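Markers of plasmacytoid dendritic cells, of which 3 were tested, summed to 3890 to 6780 in pre-BI cells, against 1500 to 2950 in large pre-BII, 2010 to 4530 in small pre-BII, 4200 to 6220 in immature and 4420 to 6020 in mature cells. Markers of stem and multipotent progenitors, of which 5 were tested, summed to 997 to 1740 in pre-BI cells, against 521 to 848, 388 to 1160, 683 to 827 and 431 to 1060 in the same order. For the dendritic cell list the pre-BI sums lay above all large pre-BII sums and overlapped with the other 3 populations. For the progenitor list the pre-BI sums lay above all large pre-BII and immature sums and overlapped with small pre-BII and mature cells. Of 40 tested ribosomal protein genes none was higher or lower than in every other population, where 26 and 10 of all 5050 genes were.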
